A study of Mus musculus with 9 samples.

Results

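The mitochondrial chromosome of the mouse carries 37 of the 55401 genes in the deposited table. They were taken as every row whose gene name starts with mt-, and comprised 22 tRNA genes (mt-T and a letter for the amino acid), 2 rRNA genes (mt-Rnr1 and mt-Rnr2) and 13 mRNA genes. In the annotation 28 of them lie on the plus strand and 9 on the minus strand. Of the 37, 36 had a mean of at least 0.5 FPKM (fragments per kilobase, relative to library size) and were tested. The phenylalanine tRNA gene *mt-Tf*, with a mean of 0.284 FPKM, was not.

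The question was how RNA from these genes differed in liver between 2 groups of female C57BL/6 mice aged 10 to 12 weeks. The WT group was 5 mice with both *Ncf1* alleles floxed and no Cre (Ncf1-fl/fl), and the NKO group was 4 littermates of the same floxed genotype with Lyz-Cre (Ncf1Lyz-/-). *Ncf1* encodes p47phox, a subunit of the phagocyte NADPH oxidase, and Lyz-Cre acts in myeloid cells, so that the hepatocytes of both groups kept the floxed gene. All mice in both groups took a control liquid diet for 5 days and then 5% (v/v) ethanol for 10 days, and received 1 gavage of ethanol at 5 g/kg, with liver collected 9 h later. No mice without ethanol enter the comparison. Bulk liver RNA does not tell fewer cells of a type from less RNA per cell.

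Each strand of mitochondrial DNA is transcribed into long precursors that hold rRNAs, mRNAs and tRNAs one after another. In the tRNA punctuation model, enzymes cut out the tRNAs, and the cuts release most of the mRNAs and rRNAs between them. The encoded proteins are subunits of respiratory complexes I, III and IV and of ATP synthase, and hepatocytes, which oxidize ethanol, are rich in mitochondria. The libraries were made by poly(A) selection. Most mitochondrial mRNAs carry short poly(A) tails, but a mature tRNA ends in CCA and has no such tail. A level at a tRNA gene therefore does not tell a mature tRNA from an uncut or polyadenylated precursor.

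The results turned mainly on plus-strand tRNA genes between *mt-Co2* and *mt-Nd5*. Their sequences, and those of an adjacent opposite-strand pair described further on, are shown as DNA in the sense of the RNA, 5′ to 3′, without the CCA end. They are GENCODE M21 transcripts on mouse build GRCm38, taken by the identifiers in the table, and capitals mark the anticodon, which decides the amino acid each carries.
mt-Tk: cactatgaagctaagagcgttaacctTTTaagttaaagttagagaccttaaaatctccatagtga
mt-Tg: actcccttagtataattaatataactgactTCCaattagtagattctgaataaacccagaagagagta
mt-Tr: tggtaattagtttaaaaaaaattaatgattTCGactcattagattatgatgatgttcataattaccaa
mt-Th: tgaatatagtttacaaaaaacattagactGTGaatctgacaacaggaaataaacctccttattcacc
mt-Ts2: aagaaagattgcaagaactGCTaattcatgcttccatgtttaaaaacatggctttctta
mt-Tl2: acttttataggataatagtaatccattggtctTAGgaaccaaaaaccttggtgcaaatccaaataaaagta
mt-Ts1: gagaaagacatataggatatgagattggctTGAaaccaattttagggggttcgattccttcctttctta
mt-Td: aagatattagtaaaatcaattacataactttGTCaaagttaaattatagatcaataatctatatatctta

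*mt-Tk*, *mt-Tg*, *mt-Tr* and *mt-Th* encode the tRNAs for lysine, glycine, arginine and histidine. *mt-Ts2* encodes the serine tRNA that lacks the D arm, and *mt-Tl2* a leucine tRNA whose TAG anticodon reads the CUN codons. *mt-Ts1* encodes the other serine tRNA and *mt-Td* the aspartate tRNA. On the GRCm38 mitochondrial chromosome *mt-Tk* spans bases 7700 to 7764, *mt-Tg* 9391 to 9458 and *mt-Tr* 9808 to 9875. The other genes of the row lie together, *mt-Th* at 11546 to 11612, *mt-Ts2* at 11613 to 11671 and *mt-Tl2* at 11671 to 11741, on the plus strand between *mt-Nd4* and *mt-Nd5*. *mt-Ts2* and *mt-Tl2* share 1 base. *mt-Ts1* runs from 6870 to 6938 on the minus strand, and *mt-Td* follows on the plus strand at 6942 to 7011. The 5 genes mt-Tk, mt-Tg, mt-Tr, mt-Th and mt-Tl2 have 65 to 71 bases and 22.1% to 33.9% G and C, within the 59 to 75 bases and 17.1% to 44.9% over all 22 tRNA genes.

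The libraries, as recovered from the smallest values in the table, held 18.6 to 20.1 M fragments (M, mega) in NKO and 15.2 to 18.6 M in WT, so that the groups differed in depth. *Ncf1* stood at 0.368, 0.333, 0.440 and 0.885 FPKM in NKO2 to NKO5, and at 1.83, 1.16, 0.492 and 0.366 FPKM in WT1 to WT4 and 1.10 FPKM in WT6. The groups overlapped and the difference was not called (log2 fold change −0.74, SE 0.44, limma adjusted p = 0.890), so the group of a library rests on its label. Albumin, at 31823 to 46840 FPKM, and the other 9 measured hepatocyte markers were present in all libraries. Kupffer cell markers, 11 of 11 tested, summed to 156 to 317 FPKM in NKO and 128 to 394 FPKM in WT. Neutrophil markers, 4 of 12 tested, summed to 4.27 to 23.3 FPKM in NKO and 6.19 to 12.6 FPKM in WT, with *Mpo* and *Elane* at or near 0. None of these lists held a gene called by limma, where 0.00810% of all tested genes were called, and their part in the results was not tested.

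Most tRNA genes lay far below the mRNA and rRNA genes, but the classes met at their edges. How poly(A) selection weighs the classes was not tested. The mRNA genes averaged 1383 to 18999 FPKM over the 9 libraries, the rRNA genes 907 and 1375 FPKM, and the tRNA genes 0.284 to 1072 FPKM with a median of 29.1 FPKM. *mt-Co1* (18999 FPKM), for the catalytic subunit of complex IV, and *mt-Nd1* (9351 FPKM), for a subunit of complex I, had the highest mRNA levels. The lowest were *mt-Nd4l* (1918 FPKM) and *mt-Nd3* (1383 FPKM), both for complex I. Among the tRNAs, *mt-Te* for glutamate (1072 FPKM) and *mt-Tp* for proline (216 FPKM) stood highest. *mt-Tv* for valine (1.10 FPKM) and *mt-Tf* (0.284 FPKM), which flank *mt-Rnr1*, stood lowest. In *mt-Tf* every value lay under what 1 whole fragment would give in a gene of that length (0.731 to 0.964 FPKM).

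**Figure D1:**
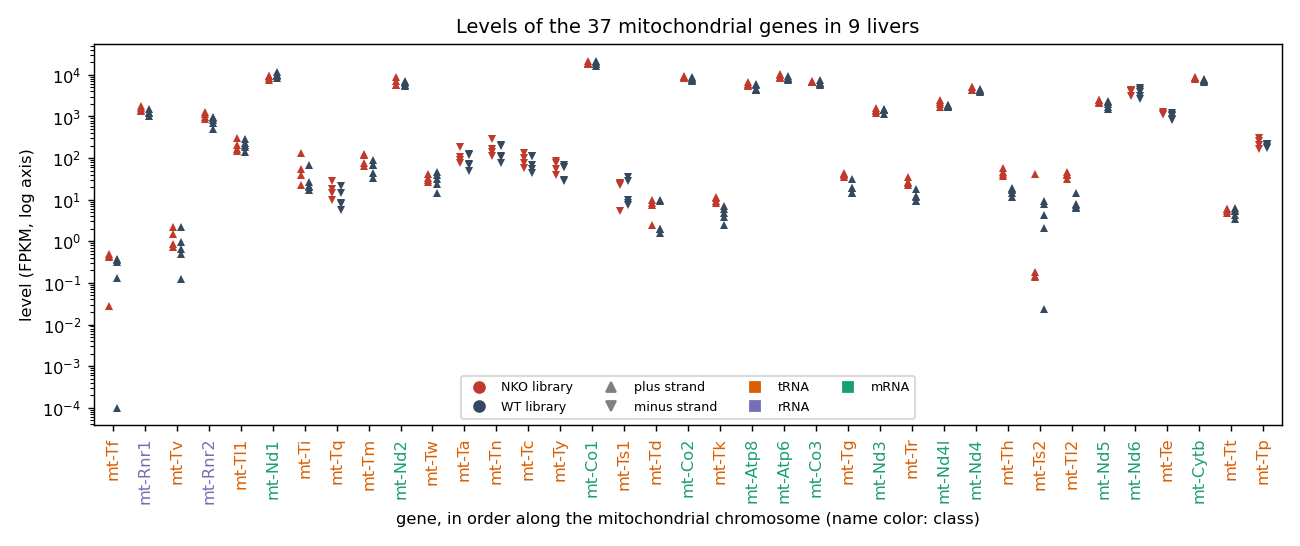
Level of each of the 37 mitochondrial genes in FPKM (log axis) in the 4 NKO and 5 WT libraries, in order along the chromosome, with 1 triangle per library pointing up for plus-strand and down for minus-strand genes. mRNA genes have means of 1383 to 18999 FPKM, and tRNA genes spread from under 1 FPKM to the 1072 FPKM mean of *mt-Te*.

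All mitochondrial genes together held 19.1% to 21.4% of the summed FPKM in NKO and 17.6% to 21.0% in WT, ranges that overlapped. The tRNA genes summed to 2167 to 2704 FPKM in NKO and 1577 to 2420 FPKM in WT, and the mRNA genes to 84589 to 96061 FPKM and 74340 to 95626 FPKM. The rRNA genes summed to 2308 to 3089 FPKM in NKO and 1558 to 2449 FPKM in WT. In each class the group ranges overlapped. The 8 minus-strand tRNA genes summed to more than the 14 plus-strand ones in every library, at 1279 to 2065 FPKM against 298 to 784 FPKM, and *mt-Te* alone made up most of the former.

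RNA of *mt-Tl2* rose in NKO. It was the only mitochondrial gene called at an adjusted p under 0.05, and also the only gene so called among all 12350 tested (0.00810%). It stood at 38.4, 46.9, 31.5 and 41.4 FPKM in NKO2 to NKO5, and at 6.37, 14.5, 6.63 and 7.38 FPKM in WT1 to WT4 and 7.80 FPKM in WT6. Every NKO library lay above every WT library, and WT2 stood apart from the other 4 WT libraries. The log2 fold change, NKO minus WT, was 2.26 (SE 0.24, 95% interval 1.73 to 2.78, n = 4 and 5, limma adjusted p = 0.0350), a 4.78-fold difference. These levels equal 41.6 to 65.2 fragments per NKO library and 7.18 to 19.2 per WT library, if each fragment counts as whole. Of the WT libraries closest in depth to NKO, WT1 (18.1 M fragments) had the lowest WT level and WT2 (18.6 M fragments) the highest.

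The call did not hold under every choice. With each library left out in turn, the log2 fold change stayed between 2.17 and 2.46. The limma adjusted p ranged from 0.000501 without WT2 to 0.214, and *mt-Tl2* was called only without WT2. In the 6 deepest libraries (the 4 NKO, WT1 and WT2) the log2 fold change was 2.01 (SE 0.33, limma adjusted p = 0.755), with WT reduced to 2 libraries.

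Just before it on the chromosome, *mt-Th* stood at 36.4, 58.4, 42.6 and 46.2 FPKM in NKO2 to NKO5, and at 11.4, 18.9, 14.4 and 18.3 FPKM in WT1 to WT4 and 17.6 FPKM in WT6. The groups did not overlap. The log2 fold change was 1.51 (SE 0.18), which fell short of the threshold (limma adjusted p = 0.0655). *mt-Ts2*, which lies between these genes, did not share the pattern. It stood at 0.135, 0.180, 0.149 and 41.9 FPKM in NKO2 to NKO5, and at 0.0242, 4.30, 2.07 and 7.99 FPKM in WT1 to WT4 and 9.20 FPKM in WT6. NKO5 was the highest of all 9 and the other NKO libraries lay below the worth of 1 fragment (0.842 to 1.11 FPKM), as did WT1. The log2 fold change of −1.43 had an SE of 1.75 (limma adjusted p = 0.934).

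Farther upstream, *mt-Tr* stood at 26.8, 35.9, 22.6 and 25.6 FPKM in NKO2 to NKO5, and at 9.29, 18.2, 9.53 and 12.4 FPKM in WT1 to WT4 and 11.5 FPKM in WT6. *mt-Tg* stood at 41.2, 38.7, 35.6 and 44.7 FPKM in NKO2 to NKO5, and at 14.4, 31.6, 14.5 and 19.4 FPKM in WT1 to WT4 and 18.9 FPKM in WT6. *mt-Tk* stood at 8.15, 11.8, 10.8 and 9.53 FPKM in NKO2 to NKO5, and at 3.75, 7.19, 2.41 and 5.83 FPKM in WT1 to WT4 and 4.77 FPKM in WT6. In each of these genes the groups did not overlap, and WT2 was the highest WT library, as it was for *mt-Th* and *mt-Tl2*. The log2 fold changes were 1.20 (SE 0.21) for *mt-Tr*, 1.07 (SE 0.22) for *mt-Tg* and 1.13 (SE 0.28) for *mt-Tk*. None was called (limma adjusted p = 0.378, 0.498 and 0.605).

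**Figure D2:**
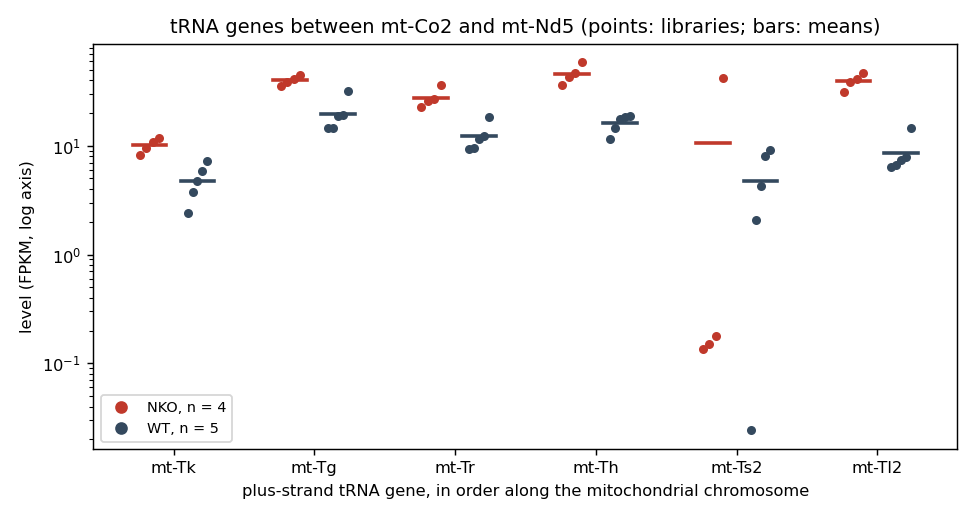
Level in FPKM (log axis) of the 6 plus-strand tRNA genes between *mt-Co2* and *mt-Nd5*, with 1 point per library and a bar at each group mean. The NKO points lie above all WT points in each gene except *mt-Ts2*, where 1 NKO library is at 41.9 FPKM and the other 3 are near 0.15 FPKM.

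Among the 36 tested mitochondrial genes, 6 had all NKO libraries above all WT libraries, where 0.713% of all tested genes did, and none had them all below, against 1.50% of all. The 6 were *mt-Tk*, *mt-Tg*, *mt-Tr*, *mt-Th*, *mt-Tl2* and *mt-Cytb*. At an unadjusted limma p under 0.05, 7 of the 36 differed, where 5.90% of all tested genes did. With all 9 libraries, all 7 were higher in NKO (2.17% of all) and none was lower (3.73% of all). These were the same 5 tRNA genes and both rRNA genes. A positive log2 fold change was found in 33 of the 36, against 50.5% of all tested genes. The mitochondrial genes share precursors and are not independent of each other.

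*mt-Rnr1*, the 12S rRNA of the small mitoribosomal subunit, stood at 1386, 1785, 1420 and 1579 FPKM in NKO2 to NKO5, and at 1229, 1237, 1045 and 1482 FPKM in WT1 to WT4 and 1215 FPKM in WT6. *mt-Rnr2*, the 16S rRNA of the large subunit, stood at 951, 1304, 888 and 1144 FPKM in NKO2 to NKO5, and at 808, 906, 514 and 967 FPKM in WT1 to WT4 and 682 FPKM in WT6. Both overlapped between the groups, with WT3 lowest and NKO3 highest in each. The log2 fold changes were 0.31 (SE 0.12) and 0.49 (SE 0.20), and neither was called (limma adjusted p = 0.842 for both).

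The mRNA genes that adjoin these RNAs differed less. *mt-Nd5*, which starts right after *mt-Tl2* and encodes a complex I subunit, stood at 2269, 2099, 2521 and 2466 FPKM in NKO2 to NKO5, and at 1696, 1517, 2268 and 2386 FPKM in WT1 to WT4 and 2002 FPKM in WT6. *mt-Nd4*, on the other side of *mt-Th*, stood at 4285, 5085, 4274 and 5198 FPKM in NKO2 to NKO5, and at 4272, 4056, 3967 and 4495 FPKM in WT1 to WT4 and 4187 FPKM in WT6. Both overlapped, with log2 fold changes of 0.26 (SE 0.15) and 0.16 (SE 0.10).

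Around *mt-Tr* and *mt-Tg*, *mt-Nd4l* stood at 1733, 2262, 1965 and 2453 FPKM in NKO2 to NKO5, and at 1717, 1656, 1843 and 1861 FPKM in WT1 to WT4 and 1772 FPKM in WT6. *mt-Nd3* stood at 1357, 1418, 1217 and 1566 FPKM in NKO2 to NKO5, and at 1482, 1410, 1168 and 1431 FPKM in WT1 to WT4 and 1400 FPKM in WT6. For *mt-Co3*, which encodes a complex IV subunit, the values were 7122, 6720, 6579 and 6817 FPKM in NKO2 to NKO5, and 6202, 5680, 6507 and 7465 FPKM in WT1 to WT4 and 6416 FPKM in WT6. The groups overlapped in all of them. The log2 fold changes were 0.24 (SE 0.11), 0.01 (SE 0.11) and 0.08 (SE 0.10).

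Beside *mt-Tk*, *mt-Co2* of complex IV stood at 8608, 8834, 9037 and 9421 FPKM in NKO2 to NKO5, and at 7956, 7109, 7458 and 9068 FPKM in WT1 to WT4 and 8196 FPKM in WT6. *mt-Atp8* of ATP synthase stood at 5407, 6075, 5826 and 6815 FPKM in NKO2 to NKO5, and at 4361, 4369, 5600 and 5970 FPKM in WT1 to WT4 and 4658 FPKM in WT6. *mt-Nd1*, downstream of *mt-Rnr2*, stood at 8263, 9524, 7706 and 9231 FPKM in NKO2 to NKO5, and at 9326, 8476, 10003 and 11828 FPKM in WT1 to WT4 and 9799 FPKM in WT6. All overlapped. *mt-Co2* and *mt-Atp8* had log2 fold changes of 0.18 (SE 0.10) and 0.28 (SE 0.13), and *mt-Nd1*, the only mRNA gene with a negative value, had −0.18 (SE 0.12).

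*mt-Cytb*, for the cytochrome b of complex III, was the only mRNA gene without overlap, at 8139 to 9106 FPKM in NKO and 6883 to 8123 FPKM in WT. Its log2 fold change was 0.20 (SE 0.09, limma adjusted p = 0.844). The 13 mRNA genes had log2 fold changes from −0.18 to 0.28. With all 9 libraries none was called by limma or had an unadjusted p under 0.05, where 0.00810% and 5.90% of all tested genes did. In the 6 deepest libraries *mt-Nd5*, *mt-Atp8*, *mt-Nd6*, *mt-Cytb* and *mt-Atp6* had an unadjusted limma p of 0.0044 to 0.048. There 674 of 12473 tested genes had a p under 0.05, and none of these mRNA genes was called. *mt-Nd6*, the only minus-strand mRNA gene, had a log2 fold change of 0.12 (SE 0.19).

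**Figure D3:**
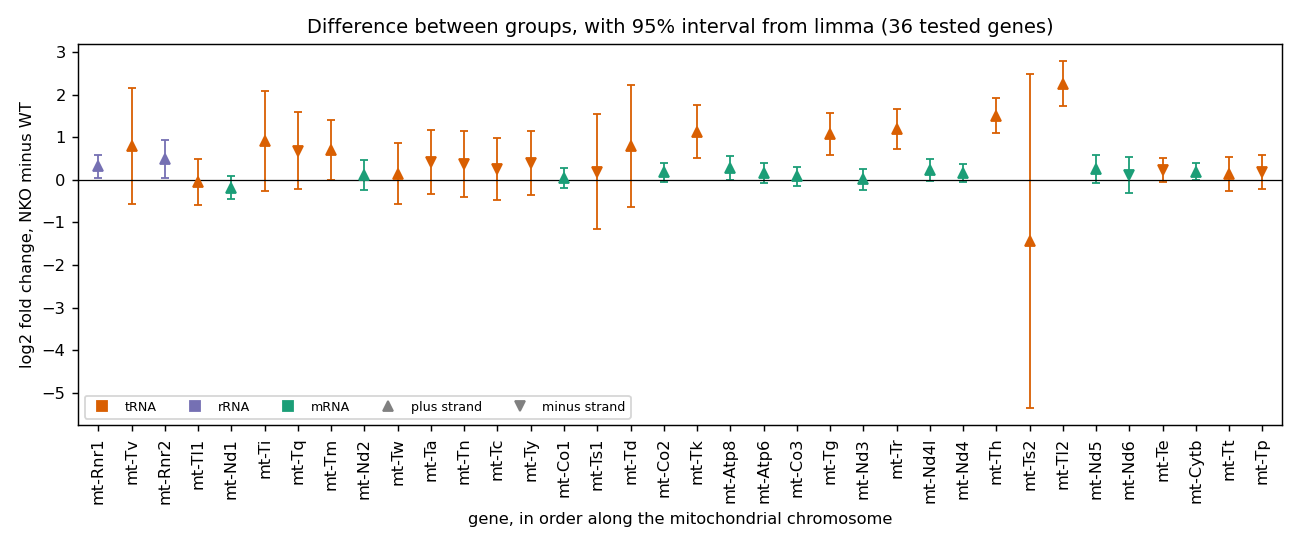
Log2 fold change, NKO minus WT, of the 36 tested mitochondrial genes in order along the chromosome, with the 95% interval from limma and colors for the classes. *mt-Tl2* stands highest at 2.26, the mRNA genes lie between −0.18 and 0.28, and *mt-Ts2* has the widest interval.

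By class, the median log2 fold change was 0.41 for the 21 tested tRNA genes, 0.40 for the 2 rRNA genes and 0.16 for the 13 mRNA genes, where that of all tested genes was 0.00. Of the tRNA genes, 19 were positive, as were both rRNA genes and 12 of the 13 mRNA genes. The tRNA median was 0.24 without NKO4, and the mRNA median was 0.25 in the 6 deepest libraries. By strand, the medians were 0.24 over 27 plus-strand genes and 0.25 over 9 minus-strand genes. The minus-strand median was 0.44 without NKO2, 0.43 without WT3, 0.41 without WT4, 0.15 without NKO4 and 0.48 in the 6 deepest libraries. The 13 tested plus-strand tRNA genes had a median of 0.80 and ranged from −1.43 to 2.26, and the 8 minus-strand tRNA genes had a median of 0.31 and ranged from 0.19 to 0.69, though *mt-Tq* and *mt-Ts1* were negative in the 6 deepest libraries (−0.08 and −0.19). None of the 9 minus-strand genes had an unadjusted limma p under 0.05, where 5.90% of all tested genes did.

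Within the plus strand, the 6 tRNA genes from *mt-Tk* to *mt-Tl2*, a row singled out after its values were seen, had a median log2 fold change of 1.17. The other 7 tested plus-strand tRNA genes had a median of 0.70, and none of them lacked overlap (0.713% of all tested genes lay above and 1.50% below). These included *mt-Ti* (0.91, SE 0.53), *mt-Tv* (0.80, SE 0.61) and *mt-Td* (0.79, SE 0.64), with wide errors. *mt-Tl1*, the other leucine tRNA gene, had −0.05 (SE 0.25). The row summed to 143 to 209 FPKM in NKO and 45.3 to 94.6 FPKM in WT.

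Each tRNA level was also set against that of the nearest mRNA or rRNA gene of its strand within the same library, a ratio that no scaling of libraries can move. *mt-Tl2* was at 1.25% to 2.24% of *mt-Nd5* in NKO and 0.292% to 0.954% in WT. *mt-Th* was at 0.851% to 1.15% of *mt-Nd4* in NKO and 0.267% to 0.465% in WT. *mt-Tg* was at 2.73% to 3.04% of *mt-Nd3* in NKO and 0.973% to 2.24% in WT. These 3 of the 22 ratios did not overlap between the groups, and no ratio lay wholly below. All 3 belong to the row singled out after its values were seen. No share over ratios of other genes was made, so how unusual 3 of 22 is cannot be read from this. *mt-Tr* over *mt-Nd4l* (1.04% to 1.59% against 0.517% to 1.10%) and *mt-Tk* over *mt-Atp8* (0.140% to 0.194% against 0.0430% to 0.165%) overlapped. Over all 22 tRNA genes the median log2 difference of the ratio was 0.29, with 20 positive and 2 negative. The 8 minus-strand tRNA genes were all set against *mt-Nd6*, up to 9709 bases away, so these ratios share a denominator. Against the nearest mRNA or rRNA gene on either strand, the median was 0.31, with 19 positive and 3 negative.

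**Figure D4:**
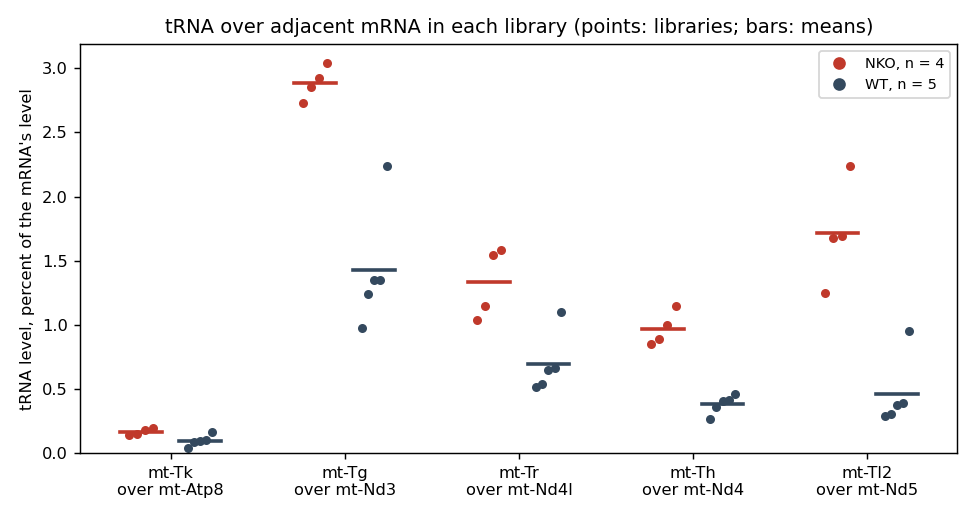
Level of 5 plus-strand tRNA genes as a percent of the level of the adjacent mRNA gene in the same library, with 1 point per library and a bar at each group mean. For *mt-Tg*, *mt-Th* and *mt-Tl2* all NKO points lie above all WT points, and the highest WT point for *mt-Tl2* is 0.954%.

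Some tRNA genes varied between libraries in a way that did not follow the groups. *mt-Ts1* stood at 23.5, 5.21, 22.8 and 24.7 FPKM in NKO2 to NKO5, and at 34.6, 9.90, 27.4 and 8.29 FPKM in WT1 to WT4 and 7.27 FPKM in WT6. *mt-Td*, its neighbor on the opposite strand, stood at 9.86, 2.52, 7.52 and 8.29 FPKM in NKO2 to NKO5, and at 9.27, 2.01, 9.86 and 2.01 FPKM in WT1 to WT4 and 1.54 FPKM in WT6. The same 5 libraries, NKO2, NKO4, NKO5, WT1 and WT3, were highest for both genes, with a gap to the other 4 libraries. The labels give no batch for these libraries. The 4 adjacent minus-strand tRNA genes *mt-Ta*, *mt-Tn*, *mt-Tc* and *mt-Ty* were all highest in NKO4 and lowest in WT1, with *mt-Tn* for asparagine between 77.6 and 287 FPKM. Their log2 fold changes were 0.25 to 0.41 with SEs of 0.32 to 0.35, and the groups overlapped in all 4 genes.

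**Figure D5:**
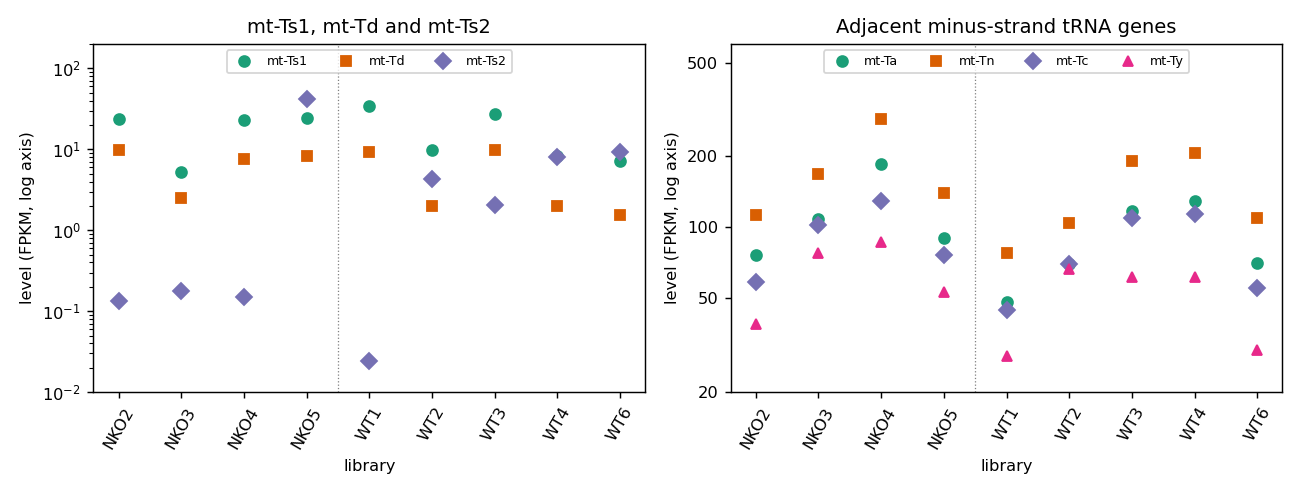
Levels in FPKM (log axis) of *mt-Ts1*, *mt-Td* and *mt-Ts2* (left) and of 4 adjacent minus-strand tRNA genes (right) in each library, with a dotted line between NKO and WT. *mt-Ts1* and *mt-Td* are high in the same 5 libraries from both groups, and the 4 genes on the right are all highest in NKO4.

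Copies of the mitochondrial genome in nuclear DNA limit what the mRNA levels stand for. On chromosome 1 (GRCm38, 24611535 to 24616197, minus strand) the annotation holds 7 near-identical copies of the genes from *mt-Co1* to *mt-Nd4*, at 8.20% to 9.76% of the summed FPKM of a library. The copies of *mt-Nd4l*, *mt-Nd3*, *mt-Co3*, *mt-Atp6* and *mt-Co2* had 0.948 to 1.05 times the level of the mitochondrial gene in every library, so that reads of either could not be told apart. Those of *mt-Co1* and *mt-Nd4* are partial, the latter over 63.6% of the gene. They had 0.651 to 0.775 and 0.401 to 0.447 times the level of the mitochondrial gene. Of the 13 mRNA genes, 10 had an annotated nuclear transcript of at least 90% identity over at least 50% of their length, as did 3 of the 22 tRNA genes and neither rRNA gene. None was found for *mt-Tk*, *mt-Tg*, *mt-Tr*, *mt-Th* or *mt-Tl2*. The first 3 of these lie in the stretch that was copied, in gaps between the annotated copies, and the search covered annotated transcripts only.

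Nuclear genes that act on mitochondrial RNA gave no call by limma in either direction, where 0.00810% of all tested genes were called. Their counts can be read beside all tested genes, 50.5% of which were positive with a median of 0.00. Of all tested genes, 5.90% had an unadjusted limma p under 0.05. In 0.713% of them NKO lay wholly above WT, and in 1.50% wholly below. Of 24 genes for processing, stability and decay, 16 had a positive log2 fold change (median 0.11), and 2 had an unadjusted p under 0.05. *Slirp*, whose product binds LRPPRC and stabilizes mitochondrial mRNAs, averaged 5.66 ± 1.18 FPKM (SD, n = 4) in NKO and 3.85 FPKM in WT without overlap (log2 fold change 0.52, limma adjusted p = 0.657). *Ptcd3*, for a mitoribosomal protein of the small subunit, had 0.35 (adjusted p = 0.842), and *Fastkd2* and *Fastk* had 0.29 and −0.28. Of 18 tRNA modification genes 12 were positive (median 0.14), with *Nsun2*, a tRNA methyltransferase, at 0.27 and *Gtpbp3* at −0.28. Of 21 tested genes for aminoacyl-tRNA synthetases and the amidotransferase, 14 were positive (median 0.05), with *Tars2* at 0.22 and *Iars2* at −0.17. No member of these last 2 lists had an unadjusted limma p under 0.05.

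Of 16 tested genes for mitochondrial DNA replication and transcription, 11 were positive (median 0.04), with *Twnk*, the helicase, at 0.22 and *Tefm*, the elongation factor, at 0.24. The mitoribosome list was taken only by names that start with Mrpl or Mrps, and a role in the mitoribosome was not checked for each gene. It includes the pseudogene *Mrpl27-ps*, highest in the list at 1.46. Of its 82 tested genes 42 were positive (median 0.00). In 1 of the 82, *Mrps36* at −0.23, NKO lay wholly below WT, as in 1.50% of all tested genes. Of 10 biogenesis regulators 7 were positive (median 0.05). *Ppargc1a*, the coactivator PGC-1α that drives mitochondrial gene expression, averaged 0.815 FPKM in NKO and 1.57 FPKM in WT, with every NKO library below every WT library (log2 fold change −0.86, SE 0.21, limma adjusted p = 0.591).

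Short nuclear genes were counted as short features outside the mitochondrial chromosome. Of 5897 nuclear genes under 150 bases, 173 were tested, with 105 positive and 68 negative log2 fold changes (median 0.12). Of all tested genes, 50.5% were positive (median 0.00). At an unadjusted limma p under 0.05, 9 of the 173 were higher and 4 lower in NKO, where 2.17% and 3.73% of all tested genes were. Without overlap, 2 lay above (*Mir6978* and *Gm22270*) and 1 below (*Gm23136*), where 0.713% and 1.50% of all tested genes did. These averaged 0.777, 1.36 and 0.703 FPKM. The tRNA genes without overlap averaged from 7.13 FPKM (*mt-Tk*) to 29.4 FPKM (*mt-Th*). Whether short features at those levels differed was not tested. Of 37 tested small nucleolar RNA genes 20 were positive (median 0.07), and 1, *Snora57*, had an unadjusted p under 0.05 (log2 fold change 0.78). Of the replication-dependent histone genes, 9 were in the table and none was tested.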

How the data were processed

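The members and gene lists were chosen with earlier results of these data known. The deposited values are FPKM per gene, which the authors made from stranded, paired-end poly(A) libraries with HISAT2 and StringTie. Tool versions, genome build, annotation and use of strand in counting are not given in the sources used here. If counting ignored strand, RNA of overlapping or opposite genes cannot be told apart. Further columns hold the authors' own fold changes, p-values and q-values and were not used. Columns were placed in groups by name and could not be tied to single labelled mice, so that p-values measure the spread between these libraries.

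Genes averaging 0.5 FPKM or more over all libraries, 12350 in number, were compared on log2(FPKM + 0.1) with limma 3.58.1 (empirical Bayes with trend, R 4.3.3) and Benjamini-Hochberg adjustment. Fold changes on this scale understate those of low genes. The procedure was tested on simulated data. Depth came from the steps of low FPKM values in 15169 single-exon genes. Per library, 50.0% to 54.5% of these low values lay on steps of 0.5 fragments (tolerance 0.1), where an even spread gives 20%. The step was fitted to these same values, so this share is partly built in and does not test the depth. Fragment numbers derived from the depth are approximate. Strand, position and sequence came from GENCODE M21, matched by identifier, and nuclear copies from BLAST 2.17.0. Values in every library are given for members with an unadjusted p under 0.05 and for the mRNA or rRNA genes next to them. The 2 highest and 2 lowest of each class are named with their means, and other members were named after their values were seen. Alternatives were pseudocounts of 0.5 and 1, other filters and scalings, no trend, array weights, each library left out, and the 6 libraries above 17 M fragments.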

Additional observations from a re-analysis of the deposited data

Results flagged for a closer look

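In 9 of 74 groups of libraries the highest or lowest value stood apart from the rest by Dixon's test, where chance alone gives about 3.7. In WT2 the values of *mt-Tl2* (14.5 FPKM), *mt-Tg* (31.6 FPKM) and *mt-Ti* (69.2 FPKM) stood above those of the other 4 WT libraries. *mt-Ts2* stood high in NKO5 (41.9 FPKM against at most 0.180 FPKM in the other NKO libraries), and *mt-Ts1* stood low in NKO3 (5.21 FPKM against at least 22.8 FPKM). *mt-Tf* was lowest in NKO4 at 0.0280 FPKM, under the worth of 1 fragment. *mt-Co1* was highest in NKO5 (21197 FPKM), *mt-Te* was highest in NKO2 (1249 FPKM) and *mt-Nd3* was lowest in WT3 (1168 FPKM).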

How the results depend on the processing

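The number of mitochondrial genes called by limma was 1. It became 0 without a filter on low values, without the trend and in the 6 libraries of higher depth, where 6, 7 and 14 had an unadjusted p under 0.05. Of all genes tested in those settings, 1274 of 27062, 699 of 12350 and 674 of 12473 had such a p. With array weights the number of mitochondrial genes called was 3 (*mt-Tl2*, *mt-Th* with adjusted p = 0.0253 and *mt-Tr* with adjusted p = 0.0340), and 0 to 1 with each library left out. Array weights called 6 of all 12350 tested genes. The number of mitochondrial genes at an unadjusted p under 0.05, 7 in the comparison as reported, was 12 with array weights and 5 to 12 with each library left out. Without NKO5, 5 were higher and 1 was lower in NKO, where 585 of 12365 tested genes had such a p. Of all tested genes, 729 of 12350 had such a p as reported and 1401 of 12350 with array weights. With each library left out, 544 of 12375 (without WT6) to 1232 of 12300 (without WT2) did. The log2 fold change of *mt-Tl2* was positive in all 18 alternatives (2.01 to 2.46, adjusted p from 0.000501 to 0.755), and *mt-Tl2* was called in 7 of them. With each library left out, the median was 0.24 to 0.58 for tRNA genes, 0.30 to 0.48 for rRNA genes, 0.11 to 0.22 for mRNA genes, 0.17 to 0.32 for the plus strand and 0.15 to 0.44 for the minus strand, all above 0. In the 6 libraries the median of all genes shifted to −0.11, and those of the Kupffer cell, biogenesis and mitoribosome lists were −0.86, −0.11 and −0.086. With each library left out, the median of the tRNA modification list was 0.019 to 0.24. The biogenesis and mitoribosome medians were positive with all 9 libraries, and the Kupffer cell median, −0.08 with all 9, ranged from −0.28 to 0.13 with each library left out. Of single mitochondrial genes, none of them called, *mt-Tq*, *mt-Ts1* and *mt-Nd3* turned negative (−0.08, −0.19 and −0.06) and *mt-Tl1* and *mt-Ts2* positive (0.20 and 0.30) in the 6 libraries. The causes of these changes were not tested. No paired analysis was possible because the table's columns carry no replicate number of the sample labels. Depth limits the lowest tRNA genes, which had less than 1 fragment's worth of signal in some libraries.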
